A study of Mus musculus with 6 samples.

Results

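Exon and UTR peaks are the chromatin immunoprecipitation (ChIP) peaks that a peak annotation places in a coding exon, a 5' untranslated region (5' UTR) or a 3' untranslated region (3' UTR), away from the start of a gene. They were taken from 6 peak lists by the deposited annotation: the class had to begin with exon, 5' UTR or 3' UTR, and the deposited distance to the nearest transcription start site (TSS) had to be over 1000 bp in either direction. No score or other measured value entered the choice. The rule found 1768 such peaks among 97783.

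The study mapped Seh1 and Chd4 in neural stem cells cultured from the cortex of newborn mice, with 6 libraries in 6 groups of 1. Cells were grown with EGF and bFGF and fixed with formaldehyde, and all groups share this. The Seh1-flag library targeted flag-tagged Seh1 in cells titled iKO, labelled wild type in genotype and treated with 4-OH-TAM (4-hydroxytamoxifen). The Seh1 Ctrl and Chd4 Ctrl libraries came from wild type cells in growth medium, targeting Seh1 and Chd4. The iKO library targeted Chd4 in cells of mutant genotype treated with 4-OH-TAM. The siSCR and siSeh1 libraries targeted Chd4 in cells labelled wild type in growth medium, and their names are not spelled out in the labels. The sources used here do not give the promoter that drives the recombinase, the number of animals behind a culture or whether tagged Seh1 was overexpressed; the header name of the Seh1-flag list begins with oe. Below, iKO, siSCR and siSeh1 without a protein name are Chd4 lists. With 1 library per group no difference between lists has a replicate check, and no test across groups is given. Intervals are exact Clopper-Pearson 95% intervals and cover counting error only.

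Seh1 is a subunit of the Y-shaped scaffold complex of the nuclear pore. Chd4 is the motor subunit of NuRD, a complex that remodels nucleosomes and removes histone acetylation and that acts mostly at promoters and enhancers. Exons take up a small part of most genes, whose bodies are mainly introns, and the last exon of a gene usually carries the end of the coding sequence and the 3' UTR. A peak annotation gives each position 1 class, and positions next to a gene's start or end are assigned to promoter and end-site classes before exons are considered, so most first exons and the ends of last exons fall outside the rule.

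A sequence could be shown for 3 of the peaks, those whose summit and its 30 surrounding bases lay in a promoter window in the RefSeq promoter sequences of GRCm38.p6 (mm10). They are printed 5' to 3' on the strand of the window, and the capital letter is the summit base. The first is the 5' UTR peak of iKO in Dhcr7, the last enzyme of cholesterol synthesis, in exon 2 of 9, at chr7:143830125-143830154 on the plus strand. The second is a siSeh1 peak in coding exon 9 of 12 of Dlgap3, a postsynaptic scaffold protein, at chr4:127233626-127233655 on the minus strand. The third is a siSCR peak in coding exon 14 of 26 of Nos3, the endothelial nitric oxide synthase, at chr5:24377280-24377309 on the minus strand. These genes were named after their values were seen.
Dhcr7: ttcaccaatcacaggAcgcagctcgcgaaa
Dlgap3: gcgtccgaactgcagGgccttgtcttctgt
Nos3: gacatttccatgagcGctgctgcaaagctc

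The Dhcr7 summit (score 6.76) lay 6973 bp from the TSS used in the deposited annotation. It lay at position -74 from another RefSeq start of Dhcr7, so the distance limit does not keep out every alternative promoter. That window of 300 bases, 250 before to 50 after the start, was 64.0% G and C and held 21 CpG pairs, against medians of 52.7% and 7 over 32851 windows. It held CCAAT 1 time on each strand, and neither TCACNCCAC (1.24% of windows) nor TATAAA (13.6%). CCAAT was found at least 1 time, on either strand, in 37.4% of all windows. The share of windows with CCAAT on both strands was not computed. A siSeh1 peak of score 11.7 lay 22 bp away, at 143830118, in the part annotated as intron, so the peaks of both lists shared this window under different classes. The Dlgap3 peak (score 3.79) lay in the window of Gm52707 and the Nos3 peak (score 4.75) in that of Gm15587, at -78 and 24 from the starts of these predicted genes. Neither window held any of the 3 motifs.

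The peaks were few in every list. They made up 0.933% of the Seh1-flag peaks (233 of 24961, 0.818 to 1.06%) and 1.56% of the Seh1 Ctrl peaks (326 of 20833, 1.40 to 1.74%). Among the Chd4 lists they made up 0.867% of the Chd4 Ctrl peaks (10 of 1154, 0.416 to 1.59%), 2.34% in iKO (499 of 21294, 2.14 to 2.56%), 1.80% in siSCR (47 of 2606, 1.33 to 2.39%) and 2.42% in siSeh1 (653 of 26935, 2.24 to 2.62%). The intervals of iKO and siSeh1 overlapped and lay above those of both Seh1 lists and of Chd4 Ctrl. At equal length, with the 1154 peaks of highest score in each list, the iKO share was 3.64% and the siSeh1 share 0.780%, so these lists were alike over all their peaks and unlike at their tops. The depth of each library is unknown, since total reads are not in these lists, and which of depth, condition or library sets the number of peaks cannot be told apart. The median scores were close to those of the lists. The median was 4.65 for the exon and UTR peaks and for all peaks of Seh1-flag, 3.39 for both in iKO and 3.35 for both in siSeh1. It was 3.50 against 3.34 in siSCR and 3.47 against 3.66 in Chd4 Ctrl, and all Seh1 Ctrl scores are deposited as 0. The upper ends differed more. Scores over 2 times the list median made up 1.53% of the exon and UTR peaks against 4.37% of all peaks in siSeh1, and 5.01% against 2.31% in iKO. These shares were 4.72% against 3.79% in Seh1-flag, 10.6% against 7.75% in siSCR and 0.0% against 3.03% in Chd4 Ctrl. Peak scores are the authors', their scale is not stated, and they are compared here only within a list.

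**Figure D1:**
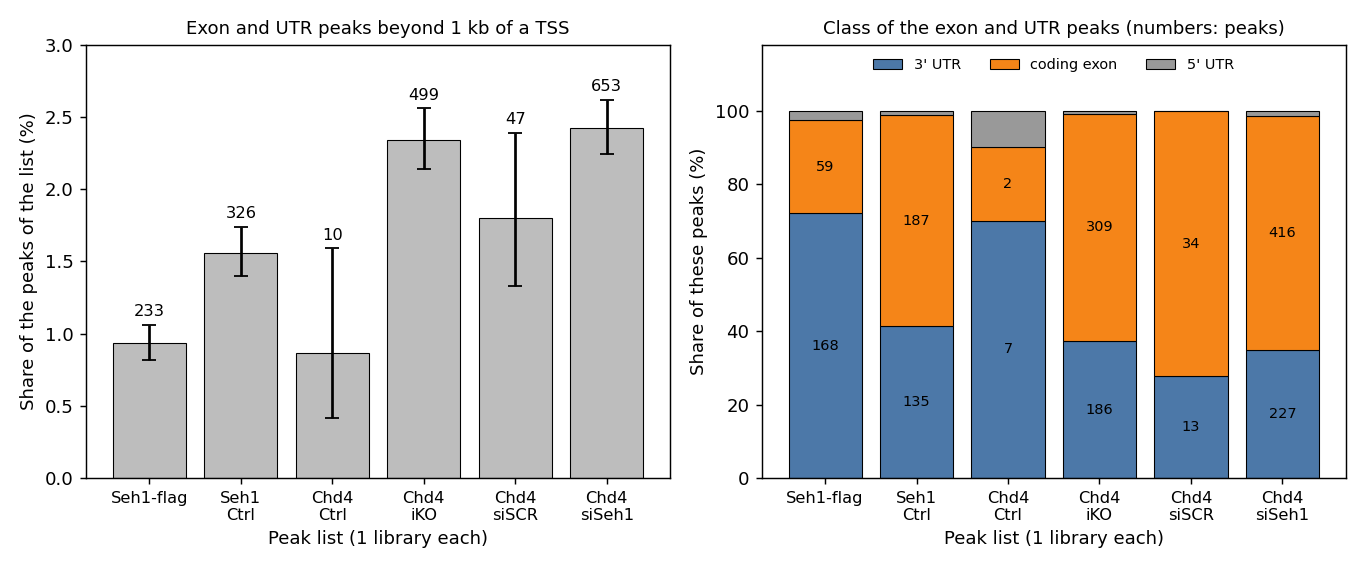
Left, exon and UTR peaks over 1 kb from a TSS as a share of each peak list (bars, percent of peaks; error bars, exact 95% interval; numbers, peaks). Right, the classes of these peaks as a share of them in each list, where 3' UTR peaks make up 72.1% in Seh1-flag and coding exon peaks the larger part in Seh1 Ctrl, iKO, siSCR and siSeh1.

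The classes differed between the lists. Of the Seh1-flag peaks 168 lay in 3' UTRs (72.1%, 65.9 to 77.8%), 59 in coding exons and 6 in 5' UTRs. In Seh1 Ctrl the counts were 135 in 3' UTRs (41.4%, 36.0 to 47.0%), 187 in coding exons and 4 in 5' UTRs. The intervals of the 3' UTR share in the 2 Seh1 lists did not overlap. These 2 lists differ in target (flag tag or Seh1) and in treatment. They also differ in form, since Seh1-flag holds summits and Seh1 Ctrl holds intervals with all scores 0. Which of these sets the contrast cannot be told apart. In iKO 186 lay in 3' UTRs (37.3%), 309 in coding exons and 4 in 5' UTRs, and in siSeh1 227 (34.8%), 416 and 10. The siSCR list had 13 in 3' UTRs, 34 in coding exons and 0 in 5' UTRs, and Chd4 Ctrl had 7, 2 and 1. Introns gave a second measure of the same contrast: there were 153 intron peaks for each coding exon peak in Seh1-flag, 38.8 in Seh1 Ctrl, 20.8 in iKO, 21 in siSeh1 and 18.0 in siSCR. Coding exon peaks were therefore sparsest in Seh1-flag, relative to intron peaks, among the lists with over 10 exon and UTR peaks. The share of exons in the genome was not computed, so no list is read as enriched or depleted.

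Peaks near the distance limit were looked at once. Within 250 bp of it there were 3 exon or UTR peaks outside and 3 inside in Seh1-flag, 4 and 1 in Seh1 Ctrl, 10 and 9 in iKO, 19 and 19 in siSeh1, 2 and 0 in siSCR and 0 and 1 in Chd4 Ctrl. The nearest inside were a Kmt2d 3' UTR peak at 1074 bp in Seh1-flag (score 5.08), an Oxct2a peak at 1072 bp in iKO (2.54) and an Fzd2 peak at 1002 bp in siSeh1 (5.00). The nearest outside were Sox11 at 827 bp in Seh1-flag, with a score of 259, Cpeb2 at 999 bp in iKO (2.39) and 9530003J23Rik at 1000 bp in siSeh1 (3.69). In Seh1-flag a peak of very high score thus lay just outside the limit, and in iKO the Sox11 peak lay just inside it, at 1160 bp with a score of 28.5. Sox11, a transcription factor of newborn neurons, has a single exon.

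Exon numbers were read from the transcript named in the annotation. Among peaks in transcripts of several exons, the last exon held 171 of 230 in Seh1-flag (74.3%, 68.2 to 79.9%), 164 of 323 in Seh1 Ctrl (50.8%, 45.2 to 56.4%), 7 of the 9 Chd4 Ctrl peaks (77.8%, 40.0 to 97.2%), 264 of 488 in iKO (54.1%, 49.6 to 58.6%), 17 of 47 in siSCR (36.2%, 22.7 to 51.5%) and 310 of 634 in siSeh1 (48.9%, 44.9 to 52.9%). All but 1 of the 3' UTR peaks in such transcripts, an iKO peak, lay in the last exon. Coding exon peaks lay mostly in inner exons. Of these, 6 of 59 in Seh1-flag lay in the last exon (10.2%, 3.82 to 20.8%), 30 of 186 in Seh1 Ctrl (16.1%, 11.2 to 22.2%), 79 of 300 in iKO (26.3%, 21.4 to 31.7%), 4 of 34 in siSCR (11.8%, 3.30 to 27.5%), 89 of 405 in siSeh1 (22.0%, 18.0 to 26.3%) and 0 of 2 in Chd4 Ctrl. The iKO interval lay above that of Seh1-flag without overlap, and it overlapped that of siSeh1. For all exon and UTR peaks the iKO share at equal list length was 65.9%, that of siSeh1 was 0 of 9 and that of Seh1-flag 50.0%.

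**Figure D2:**
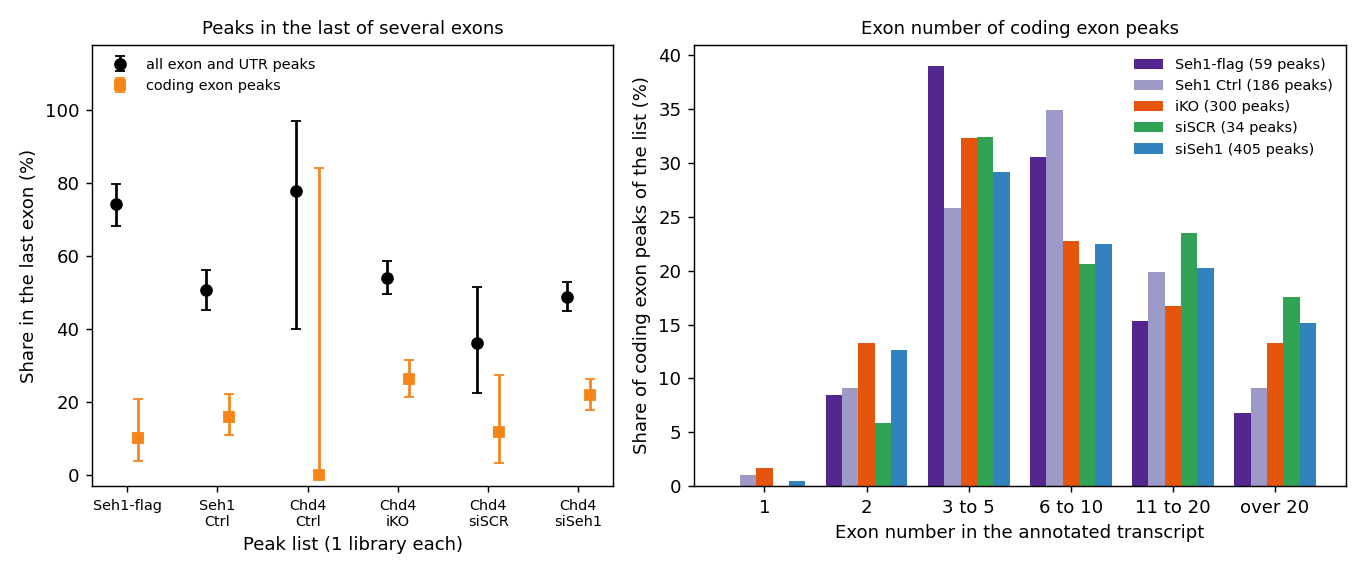
Left, share of peaks in the last exon of transcripts with several exons, for all exon and UTR peaks (circles) and for coding exon peaks (squares), with exact 95% intervals, by peak list. Right, exon number of the coding exon peaks as a share of them, for 5 lists; exons 3 to 10 hold the larger part in each, and Chd4 Ctrl with 2 coding exon peaks is left out.

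The median exon number of coding exon peaks was 6 in Seh1-flag, iKO and siSCR and 7 in Seh1 Ctrl and siSeh1, in transcripts with a median of 10 exons (iKO) to 18 exons (siSCR). The first exon held 2 coding exon peaks in Seh1 Ctrl, 5 in iKO, 2 in siSeh1 and 0 in the others. Exons beyond number 20 held 4 of 59 in Seh1-flag (6.78%), 17 of 186 in Seh1 Ctrl (9.14%), 40 of 300 in iKO (13.3%), 61 of 405 in siSeh1 (15.1%) and 6 of 34 in siSCR (17.6%). The highest numbers belonged to Ttn, the giant spring protein of muscle, with siSeh1 peaks in exons 259 and 275 of 313 (scores 4.58 and 3.79) and an iKO peak in exon 137 (3.93). In Seh1 Ctrl the highest was exon 69 of 116 of Syne2, a nuclear envelope protein. Transcripts of 1 exon held 3 peaks in Seh1-flag, 3 in Seh1 Ctrl, 11 in iKO, 19 in siSeh1, 1 in Chd4 Ctrl and 0 in siSCR.

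Genes were then counted. The transcripts named in the annotation belonged to 223 protein-coding genes in Seh1-flag (1.02% of 21896), 321 in Seh1 Ctrl (1.47%), 478 in iKO (2.18%), 622 in siSeh1 (2.84%), 42 in siSCR (0.192%) and 10 in Chd4 Ctrl (0.0457%). These shares are the background for every gene count below. For 41.6% of the 1768 peaks the gene that holds the exon was another one than the gene of the nearest TSS. Peaks in 2 or more different exons of a transcript were listed for 5 genes in Seh1-flag (0.0228% of the protein-coding genes), 4 in Seh1 Ctrl (0.0183%), 12 in iKO (0.0548%), 18 in siSeh1 (0.0822%), 1 in siSCR (0.00457%) and 0 in Chd4 Ctrl (0.0%). With 3 or more exons there were 1 in Seh1-flag (0.00457%), 2 in iKO (0.00913%), 1 in siSCR (0.00457%), 3 in siSeh1 (0.0137%) and 0 (0.0%) in Seh1 Ctrl and Chd4 Ctrl. The genes with 3 or more were Robo2 in Seh1-flag, Alb and Serpina1c in iKO, Chd4 in siSCR, and Chd4, Seh1l and Slit1 in siSeh1. Most of these genes had hardly any intron peak in the same list: Alb and Serpina1c together had 0, Chd4 had 1 in siSCR and 1 in siSeh1, Slit1 had 1 and Seh1l 0. Robo2, which spans 1560 kb, was the exception, with 12 intron peaks in Seh1-flag. An intron peak was also absent from most genes with 1 exon listed. Such genes with an intron peak were 119 of 466 in iKO, 189 of 604 in siSeh1, 4 of 41 in siSCR and 88 of 218 in Seh1-flag.

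Chd4, the target of 4 of the libraries, has 39 exons in its annotated transcript (chr6:125095980-125130591, 34.6 kb). In siSCR its peaks lay in exons 6, 9, 15, 16, 19 and 24, with scores of 4.79, 5.48, 8.39, 6.68, 3.94 and 10.3. In siSeh1 they lay in exons 6, 10, 12, 19, 24, 38 and 39, with scores of 14.4, 13.3, 8.72, 7.73, 12.2, 6.28 and 6.28. In iKO they lay in exons 4 and 6, with scores of 5.59 and 4.18, and Chd4 Ctrl had none. All of these were coding exon peaks. Among all peaks of the list they ranked 49 to 851 of 2606 in siSCR and 230 to 1289 of 26935 in siSeh1. Among exon and UTR peaks alone, the exon 24 peak was the highest of siSCR. Those in exons 6, 10 and 24 ranked 2 to 4 among the exon and UTR peaks of siSeh1. Exons 6, 19 and 24 were listed in both siSCR and siSeh1, and the exon 6 summits of siSCR, siSeh1 and iKO, at 125101600, 125101598 and 125101611, lay within 13 bp. Neither Seh1 list had an exon peak in Chd4, and each had 1 intron peak. The gene lies in a bin of 200 kb that counts as dense (5 or more peaks) through its own 7 siSCR peaks alone. Leaving out dense bins thus removes Chd4 by construction, and no siSCR gene then had 3 exons listed.

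Seh1l, which encodes Seh1, has 8 exons. Exon 4 was listed in Seh1-flag (score 9.52), Seh1 Ctrl, siSCR (7.79) and siSeh1 (23.2), with the centres within 80 bp, and no other exon was in as many lists. The siSeh1 list also had exons 3 (6.17) and 7 (4.85). The exon 4 peak was the highest exon or UTR peak of siSeh1 and ranked 4 among those of siSCR. No exon peak of Seh1l was listed in iKO or Chd4 Ctrl, and the only intron peak of the gene was in Seh1-flag.

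Slit1 encodes a secreted ligand that repels growing axons, and Robo2 is a receptor for such ligands. The Slit1 exon peaks over 1000 bp from a TSS lay late among its 37 exons (chr19:41597824-41747275): exon 32 in Seh1-flag (score 4.65), exon 37 in iKO (10.2), exon 35 in siSCR (9.32) and exons 32, 36 and 37 in siSeh1 (4.08, 7.41 and 4.71). Seh1-flag and siSCR each had a further Slit1 peak in exon 1 within 1000 bp of a TSS, and Slit1 intron peaks numbered 2 in Seh1 Ctrl, 1 in siSCR and 1 in siSeh1. The exon 32 peaks of Seh1-flag and siSeh1 lay 29 bp apart and the exon 37 peaks of iKO and siSeh1 53 bp apart. Robo2 (chr16:73891976-75447443) had Seh1-flag peaks in exons 8, 9, 11 and 14 of 28, with scores of 10.2, 15.3, 11.9 and 30.8, the last being the highest exon or UTR peak of that list. A further Seh1-flag peak lay in exon 1 of Robo2 within 1000 bp of a TSS. Seh1 Ctrl had 15 Robo2 intron peaks, siSeh1 had 4, iKO had 1, and none of these lists had an exon peak there.

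**Figure D3:**
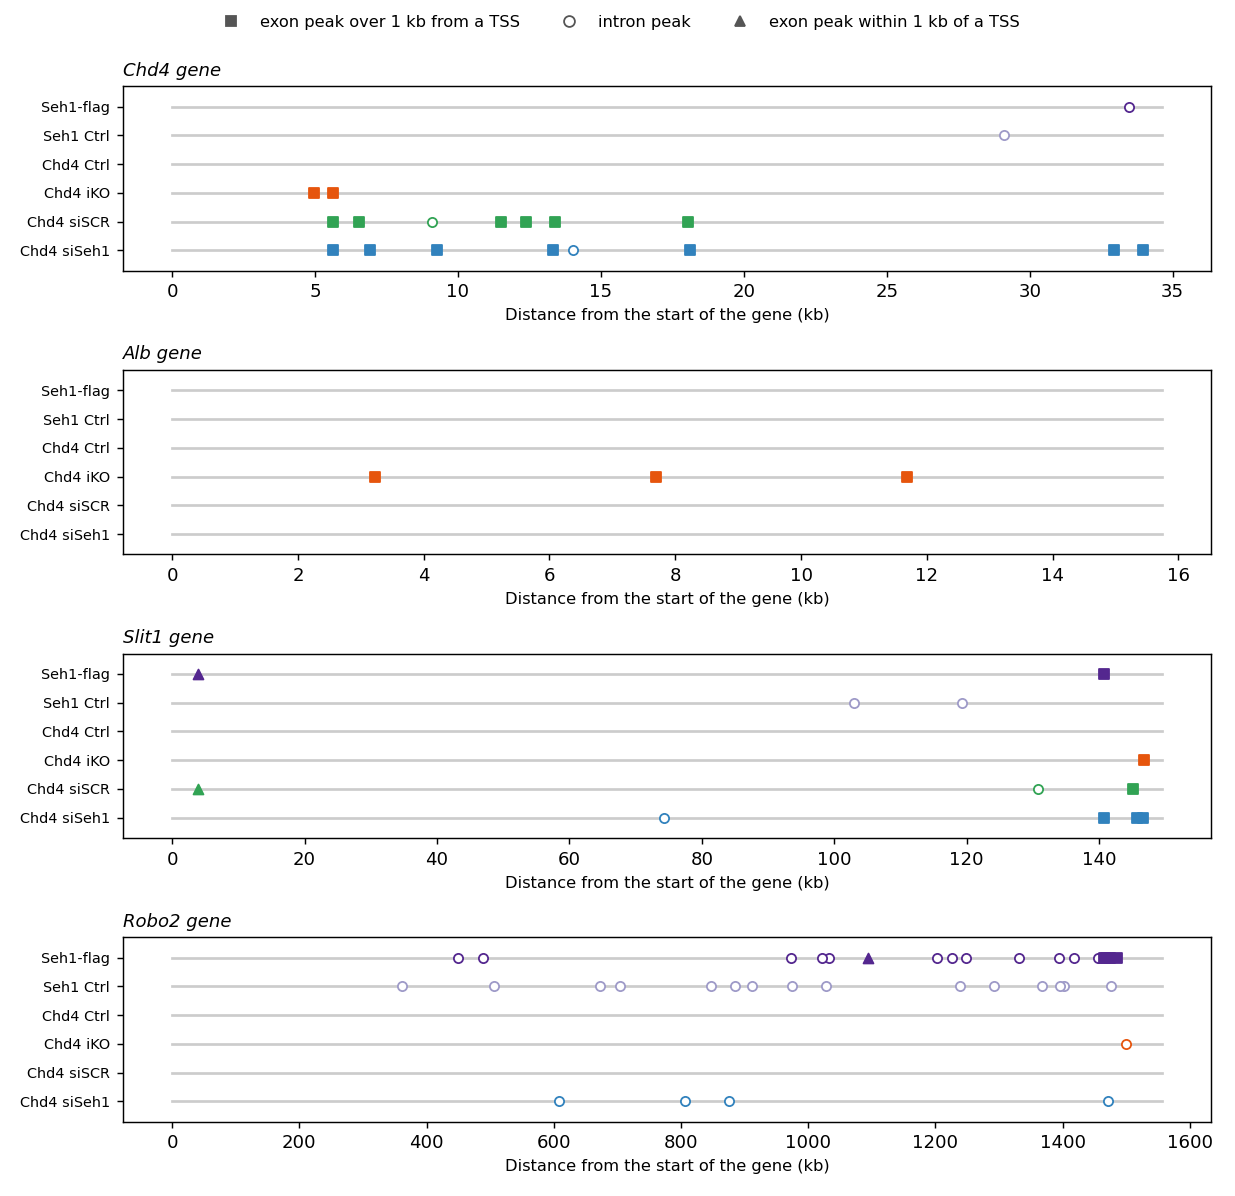
Peaks along the Chd4, Alb, Slit1 and Robo2 genes in the 6 lists (1 row each; x axis, distance from the start of the gene in kb). Filled squares are exon peaks over 1 kb from a TSS, open circles intron peaks and triangles exon peaks within 1 kb; in Chd4 the 6 siSCR and 7 siSeh1 squares stand beside 1 intron peak each, and in Alb the 3 iKO squares stand alone.

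The other genes with 2 exons listed differed between the lists. In Seh1-flag they were Hsf2, Casp4, Aspm and Cnot6l, and in Seh1 Ctrl Aff3, Dlg5, Rfx2 and Sidt1. In siSeh1 they included Retsat, a retinol saturase of lipid metabolism (exons 4 and 5 of 11, scores 6.23 and 4.36), Ttn, and Ubr4, a very large ubiquitin ligase (exons 68 and 83 of 106, scores 4.58 and 3.79). In iKO they were Hpx, Serpina3k, Selenop, Apob and Trf, and Eef1a1, Chd4, Csmd2, Hmcn2 and Myo15. Alb, Hpx, Apob and Trf of these 12 iKO genes are in the list of genes abundant in liver described next. Selenop, Serpina1c and Serpina3k are not in that list. Selenop carries selenium in plasma, though, and Serpina1c is a close copy of Serpina1a and Serpina1b, which are in the list.

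The tissue of the genes was described with 22 gene lists. In iKO 21 of 40 genes abundant in liver had an exon or UTR peak (52.5%, 36.1 to 68.5%), against 2.18% of all protein-coding genes. The counts were 0 of 40 (0 to 8.81%) in Seh1-flag, Seh1 Ctrl, Chd4 Ctrl and siSCR, with backgrounds of 1.02%, 1.47%, 0.0457% and 0.192%, which lie inside that interval. In siSeh1 they were 2 of 40 (5.00%, 0.611 to 16.9%), against 2.84%. The intervals of iKO and siSeh1 did not overlap, although siSeh1 had more exon and UTR peaks (653) than iKO (499). This gene list was drawn up with earlier results of these data known, so the count is a description.

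The 21 iKO genes covered several roles of the liver, and the ones beyond Alb, Apob, Hpx and Trf were named after their values were seen. Among plasma carriers were Alb (albumin) in exons 4, 8 and 12 of 15 (chr5:90460870-90476602, scores 9.65, 6.18 and 12.5), Hp (haptoglobin, which binds haemoglobin) in exon 5 of 5 (29.8), Hpx (hemopexin, which binds haem) in exons 6 and 10 of 10 (8.28 and 11.3), Trf (transferrin) in exons 7 and 16 of 17 (4.74 and 5.59), Ttr and Ahsg. Among apolipoproteins, the protein parts of blood lipid particles, were Apoa1 in exon 4 of 4 (18.9), Apoa2 in exon 4 of 4 (6.49) and Apob in exons 26 and 29 of 29 (2.70 and 9.48). All 3 fibrinogen genes were listed: Fga in exon 5 of 5 (11.3), Fgb in exon 8 of 8 (6.49) and Fgg in exon 8 of 9 (4.12). The others included the complement component C3, the enzymes Mat1a (13.5), Tat (5.59), Tdo2 (3.17), Cyp2e1 (8.35) and Cyp3a11 (8.33), and the protease inhibitors Serpina1a (5.47) and Serpina1b (5.10). The Serpina1 and Serpina3 genes have near-identical copies side by side, so which copy a peak belongs to is uncertain, Serpina1c included.

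There were 26 of these iKO peaks, 20 in coding exons and 6 in 3' UTRs. Of these, 14 lay in last and 12 in inner exons, beside 54.1% in last exons for all iKO exon and UTR peaks. The same 40 genes held 5 intron peaks in 4 genes. Over the whole iKO list there were 12.9 intron peaks for each exon or UTR peak, which counts intron peaks of genes without an exon or UTR peak too. A closer comparison is with the iKO genes that had 1 exon listed, which held 247 intron peaks beside 472 exon and UTR peaks. The scores of the 26 liver gene peaks had a median of 6.83 (2.70 to 29.8), against 3.39 for the list. Liver genes held 11 of the 20 exon and UTR peaks of highest score (55.0%), 20 of the highest 50 (40.0%) and 6 of the other 449 (1.34%). A score over 2 times the list median was found for 25 of the 499 iKO exon and UTR peaks (5.01%), 13 of them in liver genes, and for 491 of all iKO peaks (2.31%). A promoter peak was listed in iKO for 3 of the 40 genes, beside 5.17% of all protein-coding genes. Not every liver gene was listed: 19 had no exon or UTR peak, Apoc3, Cps1, Arg1 and Serpinc1 among them.

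**Figure D4:**
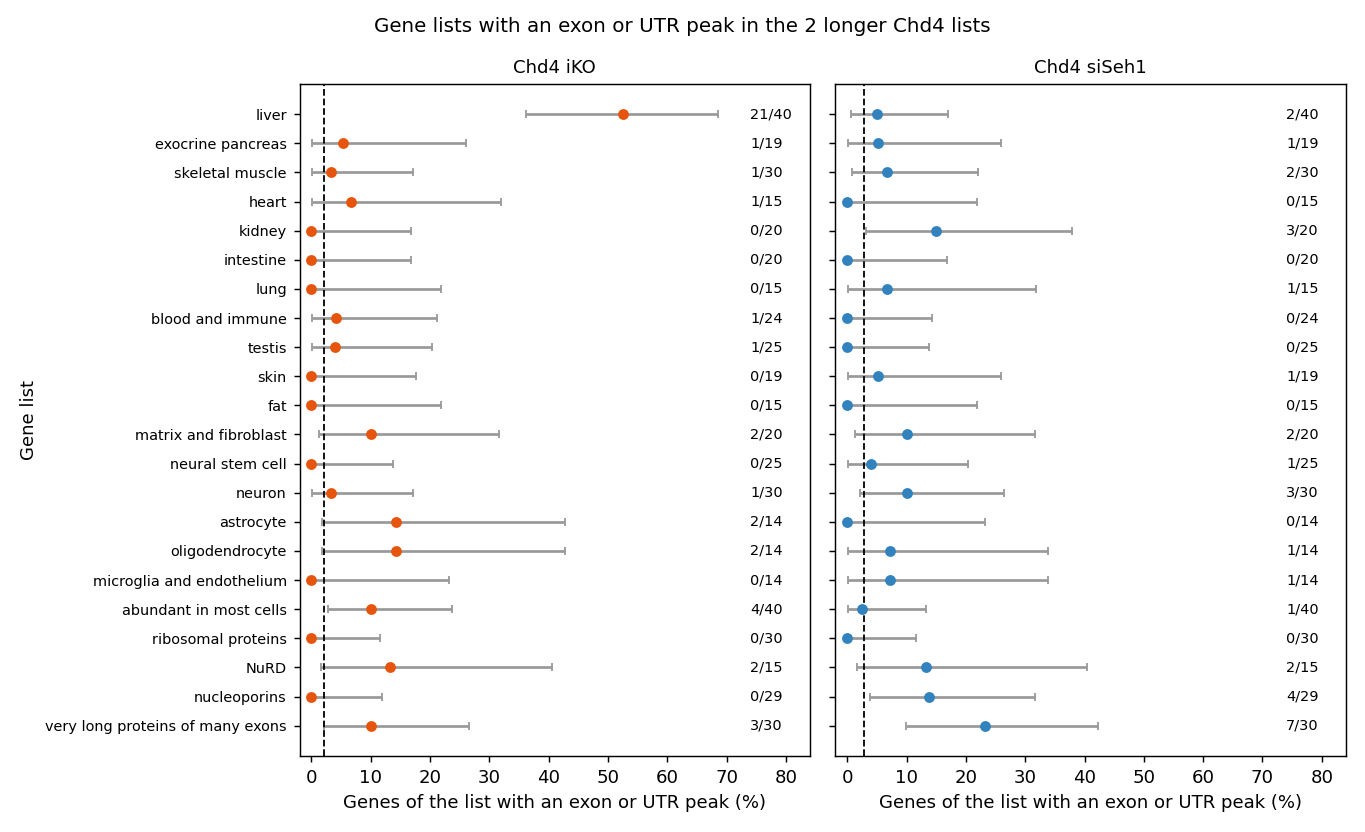
Share of each gene list with an exon or UTR peak in iKO (left) and siSeh1 (right), with exact 95% intervals; the dashed line is the share of all protein-coding genes and the numbers at the right are genes with a peak of genes matched. The liver list stands at 52.5% in iKO and 5.00% in siSeh1.

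The highest iKO scores outside the liver list were looked at as well. Apoe, an apolipoprotein made by astrocytes and by liver, had the highest score of the whole iKO list, 49.8, in the last of its 3 exons (chr7:19696797). Bhmt, an enzyme of homocysteine metabolism that is abundant in liver, had a 3' UTR peak in exon 8 of 8 (25.8). Clu, a secreted chaperone, had a peak in exon 5 of 9 (7), and with Apoe it made up the 2 of 14 astrocyte markers listed in iKO. Selenop, which carries selenium in plasma, had peaks in exons 2 and 5 of 5 (5.31 and 9.30). Among genes abundant in most cells, iKO listed Actb, Eef1a1 and Hspa5 among others, and Seh1-flag listed Actb and Eef1a1 in their 3' UTRs. The Eef1a1 3' UTR peaks of both lists lay 34 bp apart. Actb and Eef1a1 have near-identical copies elsewhere in the genome, so their peaks are uncertain.

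Markers of other tissues were found in small numbers. In iKO 0 of 20 kidney genes, 0 of 20 intestine genes, 0 of 15 lung genes, 0 of 19 skin genes and 0 of 15 fat genes had an exon or UTR peak, and there was 1 gene each for exocrine pancreas (Prss2), skeletal muscle (Ttn), heart (Ldb3) and testis (Ldhc). Matrix and fibroblast genes had 2 of 20, Col6a3 and Fn1. In siSeh1 the kidney count was 3 of 20 (15%, 3.21 to 37.9%), an interval that lay above the background of 2.84%. These genes were Cubn (67 exons), Lrp2 (79 exons) and Nphs1 (30 exons), and Lrp2 is also in the list of very long proteins. Further siSeh1 counts were 2 of 30 for skeletal muscle (Myh2 and Ttn) and 2 of 20 for matrix and fibroblast (Col6a1 and Fn1). There was 1 siSeh1 gene each for exocrine pancreas (Rnase1), lung (Muc1) and skin (Tgm3). Seh1-flag listed Cpb1 of pancreas and Krtdap of skin, and Seh1 Ctrl listed Ryr2 of heart, Ptprc of blood and Aqp7 of fat. Ribosomal protein genes, which have many copies in the genome, had 0 of 30 in every list.

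Markers of the labelled cell type were as rare. Of 25 neural stem cell genes, Notch2 was listed in Seh1-flag (4.03), Mki67 in siSeh1 (3.79) and none in the other lists. Of 30 neuronal genes, iKO listed Sox11, siSeh1 listed Ank2, Mapt and Snap25, and Seh1 Ctrl listed Slc17a6. Oligodendrocyte markers were Mbp and Sox10 in iKO (2 of 14) and Cspg4 in siSeh1 (1 of 14), and Tmem119 of microglia was in siSeh1. Peak lists do not measure expression, so the cell type could not be checked. Trf is also made by oligodendrocytes and Ttr by the choroid plexus, and the part that other cell types had in the iKO result was not tested.

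Complexes of the targets and long genes were described in the same way. Of 15 NuRD genes, iKO listed Chd4 and Chd5, siSCR listed Chd4 and Mbd3 (exon 6 of 7, score 5.56) and siSeh1 listed Chd4 and Mta3. The share was 13.3% in each (1.66 to 40.5%). That interval held the background in iKO (2.18%) and siSeh1 (2.84%) and lay above it in siSCR (0.192%). The siSCR share rests on 2 genes, and 1 of them is Chd4, the target of that library. It is therefore not read as a trait of the complex. Of 29 matched nucleoporin genes, siSeh1 listed Nup107, Nup214, Nup88 and Seh1l (13.8%, 3.89 to 31.7%, against 2.84%). Seh1 Ctrl listed Nup214 and Seh1l, and Seh1-flag and siSCR listed Seh1l. Outside Seh1l their scores in siSeh1 were between 2.36 and 3.79. Of 30 very long proteins of many exons, 7 had a siSeh1 peak (23.3%, 9.93 to 42.3%, against 2.84%), with scores up to 5.41. In 28 of the 30 there were siSeh1 intron peaks, 99 in all. In iKO the counts were 3 genes with an exon peak and 19 with 64 intron peaks. The long genes thus had exon peaks beside many intron peaks, where the liver genes in iKO had 26 exon and UTR peaks beside 5 intron peaks. The same liver genes held 6 intron peaks in siSeh1, 4 in Seh1 Ctrl, 3 in Seh1-flag, 1 in siSCR and 0 in Chd4 Ctrl. These gene lists differ in gene length (Ttn spans 279 kb and Alb 15.7 kb), and the part of length in this contrast was not tested.

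Scores set a few genes apart in each list. In siSeh1, 7 of the 10 exon and UTR peaks of highest score lay in Seh1l, Chd4 and Slit1. The remaining 3 were in Zfp503 (5' UTR, 8.29), Mei1 (7.38) and Kdm6b. In siSCR 6 of the highest 10 lay in the same 3 genes, and the others were in Nck2, Aox3, Scfd2 and Mbd3. In Seh1-flag 4 of the highest 10 lay in Robo2, and others in Tceanc2 (13.5), Hjurp (12), Gen1 (11.3) and Bcl2 (11.2). In iKO 5 of the highest 10 were liver list genes, and Slit1 ranked 13. In Chd4 Ctrl no exon or UTR peak exceeded a score of 4.44, reached by Vcpip1 and Nox4, in a list whose highest score was 35.5. Its others included Cldn34c1 (3.66), Smchd1 (3.62), Gpm6a (3.32), Synj1 (2.94) and Lrrc58 (2.84).

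**Figure D5:**
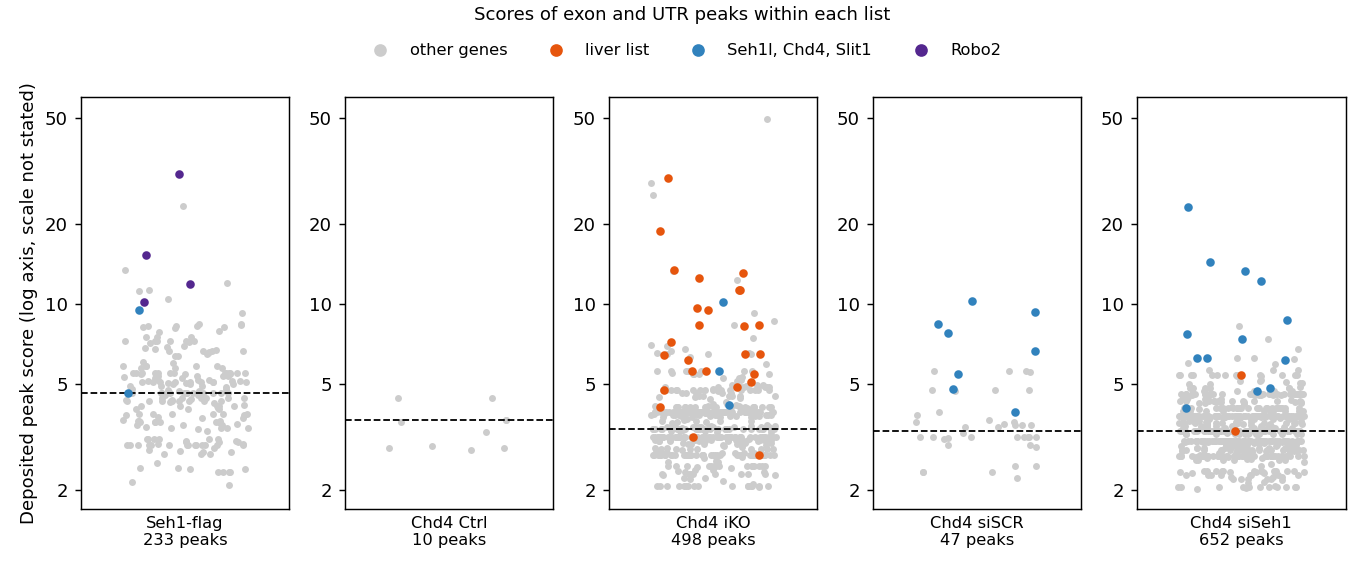
Deposited peak scores (log axis, scale not stated) of the exon and UTR peaks in the 5 lists with scores; points are peaks spread sideways at random, the dashed line is the median of all peaks of the list, and 1 peak each of iKO and siSeh1 without a matched gene is left out. Liver list genes make up 11 of the 20 highest peaks in iKO, Seh1l, Chd4 and Slit1 6 of the 10 highest in siSCR and 7 of 10 in siSeh1, and Robo2 4 of 10 in Seh1-flag; scores are not comparable between panels.

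Most of the genes were in 1 list only. The 6 lists named 1588 genes, of which 100 were in 2 or more lists (6.30%): 94 in 2, 4 in 3 and 2 in 4. Of the iKO genes 33 were also in siSeh1 (6.90%) and of the siSCR genes 5 (11.9%), against 2.84% of all protein-coding genes. Seh1 Ctrl held 8 of the Seh1-flag genes (3.59%), against 1.47%. Chd4 Ctrl shared 0 genes with siSCR and 0 with siSeh1. The part of gene length in this sharing was not tested. Of 1694 exons, 53 were in 2 or more lists, 35 of them in 3' UTRs and 17 in coding exons, and at 23 the peaks overlapped when summits were widened to 240 bp (11 coding, 12 in 3' UTRs). The centres in shared exons lay a median of 141 bp apart in coding exons and 980 bp apart in 3' UTRs. Of the 47 siSCR exon and UTR peaks, 5 overlapped a siSeh1 peak (10.6%, 3.55 to 23.1%), in Chd4, Cobl and Seh1l, against 88 of 2168 other siSCR peaks away from a TSS (4.06%, 3.27 to 4.98%). The intervals overlapped. Of the 499 iKO peaks, 9 overlapped a siSeh1 peak (1.80%, 0.828 to 3.40%), against 288 of 19525 (1.48%, 1.31 to 1.65%), and they lay in Agfg1, Chd4, Dhcr7, Hp, Phf19, Slit1, Tprkb, Vmn2r6 and Zbed5. Between the 2 Seh1 lists 3 of the 233 Seh1-flag peaks overlapped (1.29%, 0.266 to 3.72%), against 0.706% of the other peaks away from a TSS. None of the 10 Chd4 Ctrl peaks overlapped a peak of another list (upper limit 30.8%), beside 1.23% (iKO) to 10.6% (Seh1-flag) of its 1137 other peaks away from a TSS. Vmn2r6 belongs to a receptor family with near-identical copies and is uncertain.

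Most of these genes had no promoter peak in the same list. In Seh1-flag 11 of 223 had one (4.93%, 2.49 to 8.65%), against 1.33% of all protein-coding genes, Robo2 and Slit1 among them. In Seh1 Ctrl 3 of 321 had one (0.935%, against 1.02%), in iKO 18 of 478 (3.77%, 2.25 to 5.89%, against 5.17%), in siSCR 2 of 42 (Mbd3 and Slit1; 4.76%, 0.582 to 16.2%, against 1.63%), in siSeh1 90 of 622 (14.5%, 11.8 to 17.5%, against 11.8%) and in Chd4 Ctrl 0 of 10 (against 0.0183%). The Seh1-flag interval lay above its background, and those of iKO and siSCR held theirs. The lower limit of siSeh1 equalled its background as rounded. The genes were longer than average and shorter than genes with intron peaks. The median span of genes with a coding exon peak was 41.6 kb in Seh1-flag, 45.5 kb in Seh1 Ctrl, 27.9 kb in iKO, 32.3 kb in siSeh1 and 35.0 kb in siSCR, against 17.1 kb for all protein-coding genes. For genes with an intron peak it was 64.4 to 107 kb in these 5 lists. Alb spans 15.7 kb and Chd4 34.6 kb.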

How the data were processed

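The 6 peak lists were used, 1 for each library. Per the submitters' processing notes Bowtie2 and HOMER were used, without versions, and those notes name human builds. Per the file headers the lists were annotated on mouse mm10. The sources used here do not give the peak caller, its threshold, the input or any pooling. The deposited peak score is the authors' value and has no stated scale; the deposited distance to TSS is in bp, per the file headers. The lists of 5 libraries hold summits, and Seh1 Ctrl holds intervals with all scores 0. The total depth of each library is unknown.

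Members were found from the annotation text with Python 3.11.15 and pandas 2.3.3, and intervals were computed with scipy 1.17.1. Genes came from the transcript in the annotation, matched to RefSeq of GRCm38.p6 (1765 peaks by transcript, 1 by gene identifier, 2 unmatched). Overlap meant at least 1 bp shared by windows of 240 bp. The counting code was checked on simulated data. Members and gene lists were chosen with earlier results of these data known. Genes were named by rule: per peak list the 6 with the most exons and the 5 of highest score, up to 10 found in the most lists, up to 4 of each gene list, and Seh1l and Chd4; predicted genes were left out. Other names were chosen after their values were seen. Alternatives changed the class, distance limit, list length, dense bins (200 kb with 5 or more Chd4 Ctrl or siSCR peaks) and gene assignment. Some genes of the lists are not reported here.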

Additional observations from a re-analysis of the deposited data

Results flagged for a closer look

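The last exon share of the exon and UTR peaks moved in opposite directions in the 2 pairs of Chd4 lists. It was -23.7 percentage points in iKO minus Chd4 Ctrl (54.1% against 77.8%) and 12.7 in siSeh1 minus siSCR (48.9% against 36.2%). Each group has 1 library and the difference between the pairs was not tested. The Chd4 Ctrl share rests on 9 peaks, with an interval of 40.0 to 97.2% that holds the iKO value, and the siSCR interval of 22.7 to 51.5% holds the siSeh1 value. The directions were opposite with no distance limit and without dense bins too, but not under the other alternatives. With coding exons only it was higher in the perturbed list of both pairs, at 26.3% against 0% (of 2) and at 22.0% against 11.8%. At equal list length it was lower in both, at 65.9% against 77.8% and at 0% (of 9) against 28.6%.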

How the results depend on the processing

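Of 100 alternative values, 74 stayed within the counting interval or within 1.5 times the main count and 26 did not; the cause was not tested unless given. With coding exons only, which leaves out the UTR peaks by construction, the share of peaks was 0.236% in Seh1-flag, 0.898% in Seh1 Ctrl, 1.45% in iKO, 1.54% in siSeh1, 1.30% in siSCR and 0.173% in Chd4 Ctrl, and the last exon share in that order was 10.2, 16.1, 26.3, 22.0, 11.8 and 0% (of 2). At equal list length (1154 peaks) the share was 3.64% in iKO and 0.780% in siSeh1, the last exon share 50.0% in Seh1-flag, 65.9% in iKO and 0% in siSeh1 (of 9), genes with 3 or more exons 1 in iKO and 1 in siSeh1, and liver genes 0 in siSeh1. With no distance limit the share was 2.76% in iKO and 3% in siSeh1, and the last exon share 49.0% and 41.5%. Without dense bins 0 siSCR genes had 3 or more exons, by construction, since the siSCR peaks of Chd4 alone make its bin dense. By the nearest TSS 1 liver gene was listed in Seh1 Ctrl. The liver count in iKO stayed between 14 and 22 of 40. Seh1 Ctrl has no scores, so no equal length value was run. No paired analysis was possible because each group has 1 library. Unknown depth, unscaled scores and the missing expected exon share limit all values.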
